A study of Homo sapiens with 4 samples.

Results

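The small nucleolar RNAs (snoRNAs) and small Cajal body RNAs (scaRNAs) of DAOY, a human medulloblastoma cell line, were followed across 4 RNA-seq libraries. Members were taken by symbol, as SNORD for C/D box snoRNAs, SNORA for H/ACA box snoRNAs and SCARNA for Cajal body RNAs, each followed by a number. Of the 20363 genes in the table of raw counts, 179 bore such a symbol, and 85 of these reached 10 counts in 2 or more libraries and were kept. These were 38 of 108 C/D box, 36 of 55 H/ACA box and 11 of 16 Cajal body members, and the other 94 lay under the threshold, none of them without a count.

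Each library was 1 condition with no replicate. The cells were controls (CTL) or overexpressed ZNF521, a zinc finger co-factor, and cells of each kind received the vehicle DMSO or SAG, an agonist of the SHH pathway receptor SMO. The study delivered ZNF521 with a lentiviral vector that carries the ubiquitin C promoter and an EGFP marker, and sorted transduced cells by EGFP. Its figure legend gives the controls the vector without ZNF521, whereas the deposited design calls them WT, so that an effect of transduction and an effect of ZNF521 cannot be told apart if the latter holds. The methods describe SAG treatment over a pair of days after a day of starvation and a range of doses, and the dose of the sequenced cells is not named there. DAOY is 1 line and no condition had a replicate, so that p-values do not measure a spread between replicates. In the main fits they rest on how far the libraries depart from additive effects of the factors and on a spread borrowed from all genes.

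SnoRNAs guide chemical changes on other RNAs. C/D box snoRNAs carry a C box (TGATGA in DNA letters) near the 5′ end and a D box (CTGA) near the 3′ end and direct 2′-O-methylation with fibrillarin, whereas H/ACA snoRNAs fold into hairpins, end with ACA and a short tail and direct pseudouridylation with dyskerin. ScaRNAs use the same boxes, stay in Cajal bodies and act on spliceosomal snRNAs. Most human members are cut from introns of host genes and have no poly-A tail. The study's libraries were said to combine poly-A selection with removal of ribosomal RNA, so that the counts need not reflect the whole pool of mature RNA, and intronic or precursor RNA of the hosts and the mature member cannot be told apart in them. In such bulk libraries a change per cell and a change in the mix of cells cannot be told apart either.

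The sequences below come from the GENCODE annotation of hg38. They are those of the most abundant member of each class and of the Cajal body members picked out by the ZNF521 comparison. Capitals mark TGATGA within the first 20 bases and CTGA within the last 20 of RNAs with C/D boxes, and in the others ACA followed by 2 to 4 bases at the 3′ end. SCARNA7, of 330 bases, is given by its first 300.
SNORD17, chr20:17962710-17962946, minus strand: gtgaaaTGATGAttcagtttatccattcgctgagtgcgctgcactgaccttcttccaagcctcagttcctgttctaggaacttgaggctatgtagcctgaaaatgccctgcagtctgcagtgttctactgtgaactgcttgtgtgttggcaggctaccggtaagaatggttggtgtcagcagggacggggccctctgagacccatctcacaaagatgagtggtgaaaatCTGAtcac
SNORA73B, chr1:28508559-28508762, plus strand: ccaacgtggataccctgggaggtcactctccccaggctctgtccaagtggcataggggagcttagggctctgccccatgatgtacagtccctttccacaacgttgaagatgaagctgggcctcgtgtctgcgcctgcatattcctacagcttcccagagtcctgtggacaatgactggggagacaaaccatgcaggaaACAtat
SCARNA7, chr3:160514937-160515236, minus strand: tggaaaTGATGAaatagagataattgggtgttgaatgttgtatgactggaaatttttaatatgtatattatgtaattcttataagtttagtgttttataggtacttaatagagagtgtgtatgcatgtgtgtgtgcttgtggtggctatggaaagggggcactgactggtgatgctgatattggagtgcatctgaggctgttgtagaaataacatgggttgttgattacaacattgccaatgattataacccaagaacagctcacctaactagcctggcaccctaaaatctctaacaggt
SCARNA5, chr2:233275727-233276002, plus strand: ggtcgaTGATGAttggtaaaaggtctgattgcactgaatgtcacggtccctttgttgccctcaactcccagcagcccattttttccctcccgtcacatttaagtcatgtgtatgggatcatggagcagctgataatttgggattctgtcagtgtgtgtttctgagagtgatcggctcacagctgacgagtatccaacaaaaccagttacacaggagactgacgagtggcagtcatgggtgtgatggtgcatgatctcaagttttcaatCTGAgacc
SCARNA13, chr14:95533355-95533629, minus strand: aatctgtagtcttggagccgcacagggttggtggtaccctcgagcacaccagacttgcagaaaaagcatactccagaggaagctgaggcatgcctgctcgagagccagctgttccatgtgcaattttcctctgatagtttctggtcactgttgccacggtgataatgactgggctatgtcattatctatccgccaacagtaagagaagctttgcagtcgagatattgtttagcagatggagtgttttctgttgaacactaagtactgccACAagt
SCARNA21, chr17:7906122-7906260, plus strand: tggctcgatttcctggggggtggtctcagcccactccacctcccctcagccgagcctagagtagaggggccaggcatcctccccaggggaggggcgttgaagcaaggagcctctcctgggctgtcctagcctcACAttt

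SCARNA7 and SCARNA5 held both the C and the D box at their ends (the D box of SCARNA7 lies beyond the stretch shown), whereas SCARNA13 and SCARNA21 ended with ACA and a tail of 3 bases. The class names from the symbols could be compared with the sequences in this way. Of the 38 C/D box members kept, 33 held TGATGA and CTGA at the named ends, and 4 ended like an H/ACA RNA. None of the 36 H/ACA members held both C/D boxes and 31 had the ACA end. Among the 11 Cajal body members, 3 had both C/D boxes and 7 had the ACA end.

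The next sequences are those of 3 H/ACA members discussed below, SNORA12, SNORA53 and SNORA74B. They are followed by copies of SNORD116, a C/D box family of many copies in the imprinted Prader-Willi region.
SNORA12, chr10:100237156-100237302, minus strand: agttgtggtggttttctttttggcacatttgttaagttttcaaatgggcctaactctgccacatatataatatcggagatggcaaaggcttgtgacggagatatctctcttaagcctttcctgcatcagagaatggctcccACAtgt
SNORA53, chr12:98599635-98599883, plus strand: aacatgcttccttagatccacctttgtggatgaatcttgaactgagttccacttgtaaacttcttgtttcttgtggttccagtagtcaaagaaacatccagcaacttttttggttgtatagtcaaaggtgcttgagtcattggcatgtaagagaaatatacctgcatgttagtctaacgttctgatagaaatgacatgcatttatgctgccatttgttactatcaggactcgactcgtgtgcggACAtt
SNORA74B, chr5:173020728-173020928, plus strand: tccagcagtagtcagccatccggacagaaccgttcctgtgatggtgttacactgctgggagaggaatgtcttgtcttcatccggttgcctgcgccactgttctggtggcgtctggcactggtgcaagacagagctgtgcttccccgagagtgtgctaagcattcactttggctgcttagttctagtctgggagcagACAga
SNORD116-13, chr15:25079058-25079149, plus strand: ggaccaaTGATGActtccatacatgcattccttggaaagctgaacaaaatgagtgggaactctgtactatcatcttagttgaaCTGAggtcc
SNORD116-19, chr15:25086527-25086618, plus strand: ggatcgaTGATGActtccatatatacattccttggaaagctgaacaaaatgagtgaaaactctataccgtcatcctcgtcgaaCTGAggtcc
SNORD116-18, chr15:25085385-25085476, plus strand: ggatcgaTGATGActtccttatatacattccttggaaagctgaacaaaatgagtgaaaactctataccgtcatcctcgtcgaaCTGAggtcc
SNORD116-30, chr15:25108268-25108352, plus strand: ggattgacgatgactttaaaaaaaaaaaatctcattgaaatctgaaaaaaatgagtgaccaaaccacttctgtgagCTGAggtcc

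The first of these copies, SNORD116-13, differed from SNORD116-19 at 12 of its 92 bases and from SNORD116-18 at 13. SNORD116-30, the last copy of the cluster with a row, held the D box letters but no TGATGA within its first 20 bases.

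All 85 members lay inside a longer gene of the same strand in GENCODE, on 21 chromosomes, and 28 overlapped an exon of such a gene. Of these members, 65 had a host with a row of its own in the table, and that host was protein-coding for 46 and a long noncoding RNA for 17. SNX5 hosted SNORD17, SNHG3 hosted SNORA73B and KPNA4, which encodes an importin, hosted SCARNA7. The 17 SNORD116 copies kept lay within SNHG14, which was not analysed here. Another gene lay on the opposite strand of 12 members. The methods describe the libraries as strand-specific, but the strand setting of the counting is not given in the sources used here. Whether reads of such pairs were told apart is thus not known.

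Total counts ran from 12294833 to 16314685 per library, and the authors' size factors from 0.887 to 1.19. ZNF521 itself stood at 713.7 and 751.1 normalized counts in the CTL libraries and at 2013 and 2072 in the ZNF521 libraries, in keeping with the labels, and the SHH target GLI1 at 323.7 and 318.1 with SAG against 75.39 and 44.25 with DMSO. Of the granule cell precursor markers, ATOH1 (0.8437 to 1.128) and BARHL1 (0 to 2.058) were near 0 in every library, NEUROD1 was low (1.005 to 8.437), and ZIC1 (240.8 to 303.4), ZIC2 (175.9 to 274.4), PAX6 (294.3 to 306.6), SOX2 (203.0 to 312.2) and NES (1518 to 1732) were present, so that 5 of 8 were expressed. The leukocyte marker PTPRC was near 0 (0.8437 to 4.021). CTL cells with DMSO differed from the other 3 libraries in several members, in the histone genes and in 2 of 4 mesenchymal markers, with 15910 normalized counts of COL1A1 against 4913 to 5316 and 66820 of FN1 against 33520 to 35240, while VIM (25010 to 29670) and THY1 (2497 to 2840) differed less. Whether this has a part in the members' differences was not tested, and results are given below with and without that library.

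Members of the 3 classes made up between 0.312% and 0.362% of all counts. H/ACA members took the most, with 0.187% (CTL, DMSO), 0.176% (CTL, SAG), 0.197% (ZNF521, DMSO) and 0.180% (ZNF521, SAG). C/D box members took 0.0701%, 0.0679%, 0.0779% and 0.0760% in the same order. The Cajal body members took 0.0549%, 0.0757%, 0.0874% and 0.0872%, so that of the 3 class sums this one alone was markedly lower in CTL cells with DMSO. Without SNORD17, which dominated its class, the C/D box members kept took 0.0119%, 0.0137%, 0.0163% and 0.0157%, also lowest there. Without SNORA73B the H/ACA members kept were highest there, at 0.0432%, 0.0369%, 0.0427% and 0.0405%. Summed counts of the Cajal body class were 1.59 times higher in ZNF521 than in CTL cells with DMSO (exact 95% Clopper-Pearson interval 1.55 to 1.64) and 1.14 times higher with SAG (1.11 to 1.17). With SAG against DMSO the sum was 1.40 times higher in CTL cells (1.36 to 1.44) and 1.01 times in ZNF521 cells (0.981 to 1.03). These intervals cover counting error only, and with 1 library per condition no ratio of single libraries could be tested.

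**Figure D1:**
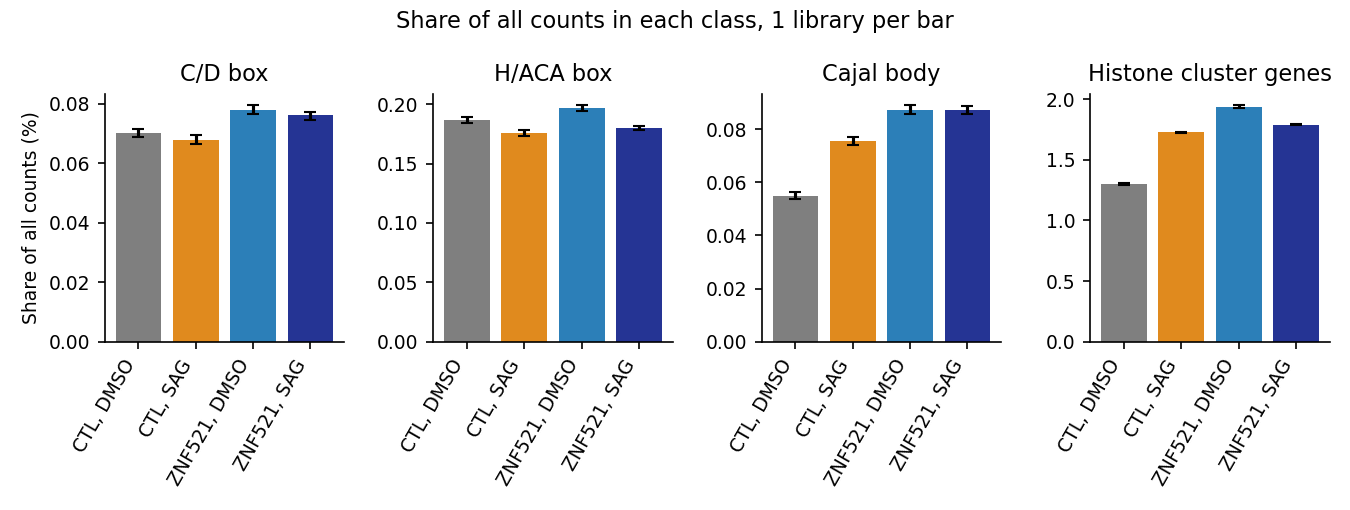
Share of all counts (%) taken by C/D box, H/ACA box and Cajal body members with a row and by histone cluster genes, 1 bar per library, with exact 95% intervals that cover counting error only. The vertical scales differ between panels. Cajal body members go from 0.0549% in CTL cells with DMSO to between 0.0757% and 0.0874% in the other 3 libraries, and histone genes from 1.30% to between 1.73% and 1.94%.

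The histone cluster genes, whose main mRNAs also lack a poly-A tail, were counted beside the members. They took 1.30%, 1.73%, 1.94% and 1.79% of counts in the same order. Their sum was 1.49 times higher in ZNF521 than in CTL cells with DMSO (1.48 to 1.50), and 58 of 59 tested genes had a higher estimate with ZNF521, 18 of them with an unadjusted p within 0.05. Among all 14970 genes tested, 7393 (49.4%) had a higher estimate and 2.36% were called higher. The order of the libraries thus matched that of the Cajal body members at its low end. Other small RNAs without a tail (11 genes such as vault RNAs) did not show that order, with 0.00964%, 0.00944%, 0.00946% and 0.0109%. Whether the share of RNA without a tail in each library has a part in the members' differences was not tested.

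Each class was dominated by a few members. SNORD17 accounted for 79.9% of the counts of the C/D box members kept and SNORA73B for 77.9% of the H/ACA members, whereas SCARNA7 accounted for 29.6% of the Cajal body class. The 3 highest members together took 87.1%, 84.5% and 81.4% of the classes. Per base of RNA, the mean normalized count was 96.6 for SNORA73B, 33.2 for SNORD17, 17.7 for SCARNA21, 10.7 for SCARNA5 and 9.39 for SCARNA7, against class medians of 0.209 (C/D box), 0.659 (H/ACA) and 0.798 (Cajal body). SNORA73B, also known as U17b, is an H/ACA RNA that takes part in the cutting of the rRNA precursor.

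Abundance went with length. Median lengths were 92 bases for C/D box, 135 for H/ACA and 166 for Cajal body members kept, and the 94 members under the threshold had a median of 82.5 against 131 for those kept. Across the 85 members, Spearman's rho between length and mean normalized count was 0.58, and 0.40 with the count taken per base, as a description over genes that share the libraries. Within the classes rho was 0.40 for C/D box, 0.43 for H/ACA and 0.57 for Cajal body members. Per base it was 0.15, 0.33 and 0.44 in the same order. The C/D box members, the shortest class, passed the count threshold least often (35.2% against 65.5% of H/ACA and 68.8% of Cajal body members).

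SNORD3A, SNORD118 and SNORD13, which act in rRNA processing, and SNORA73A and SCARNA2 were not analysed here. Just inside the threshold lay SCARNA18, with 7, 12, 4 and 10 counts in the order CTL with DMSO, CTL with SAG, ZNF521 with DMSO and ZNF521 with SAG, and SNORD20 with 10, 3, 10 and 17. Just outside lay SNORA20 with 9, 10, 8 and 7 counts and SNORD116-12 with 8, 5, 11 and 9. Of the 85 members, 10 passed through both libraries of 1 condition alone, namely SNORD111B, SNORD116-8, SNORD116-30 and SNORD6 through the ZNF521 libraries, SNORD88A and SNORD114-3 through the DMSO libraries and SCARNA18, SNORD114-21, SNORD116-3 and SNORD116-17 through the SAG libraries. Counts are given below with and without these 10, since a member that passed through 1 condition had to be higher there.

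**Figure D2:**
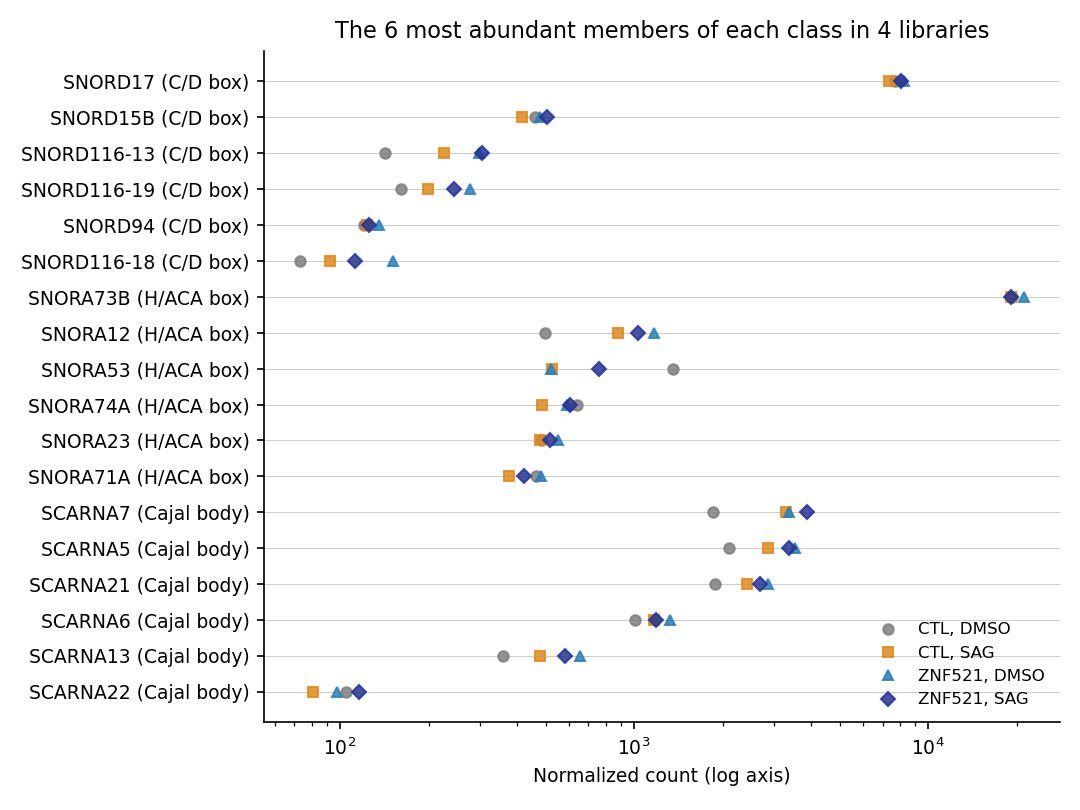
Normalized counts (log axis) of the 6 members of highest mean in each class, 1 symbol per library. SNORA73B and SNORD17 lie nearly on 1 point each, whereas for SCARNA7, SCARNA5, SCARNA13, SNORA12 and SNORD116-13 the CTL library with DMSO lies below the other 3.

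The first comparison asked which members differed between cells with ZNF521 and CTL cells within the treatments. In the order CTL with DMSO, CTL with SAG, ZNF521 with DMSO and ZNF521 with SAG, SCARNA7 stood at 1853, 3293, 3377 and 3867 normalized counts, SCARNA5 at 2109, 2854, 3528 and 3367, SCARNA21 at 1879, 2423, 2853 and 2683, and SCARNA13 at 357.8, 477.0, 654.4 and 583.8. For each of the 4, both ZNF521 libraries lay above both CTL libraries, with the lowest value in CTL cells with DMSO. Of the 85 members, 13 reached an unadjusted p of at most 0.05, the threshold of the study, by the quasi-likelihood test of edgeR, 12 of them higher and 1 lower with ZNF521. That was 15.3% of members against 5.48% of the 14970 genes tested (14.1% against 2.36% higher and 1.18% against 3.11% lower). Without the 10 members that passed through 1 condition, 12 of 75 were called (16%), 11 of them higher. None passed after Benjamini-Hochberg adjustment over all genes by edgeR, DESeq2 or limma, and 1 gene of the whole table (0.00668%) did by edgeR. DESeq2 gave 5 members at the unadjusted threshold, namely SCARNA5, SCARNA7, SCARNA13, SNORA12 and SNORD116-13, and limma gave 12. The shares of all genes that DESeq2 and limma called are not given here, so that these counts cannot be read as an excess.

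Without the CTL library with DMSO, 9 members reached the unadjusted threshold, all higher with ZNF521 (10.6%, against 4.05% of all genes in either direction and 2.46% higher), and 7 of the 9 were among the 12 above. Without the CTL library with SAG, 22 did (25.9% against 27.8% of all genes), and without the ZNF521 library with DMSO or with SAG, 1 (1.18% against 0.795%) and 2 (2.35% against 1.06%) did. With 3 libraries a block leaves no residual degree of freedom, so that these fits hold the factor alone, and the library and the block were dropped together. Without the block alone, all 4 libraries gave 9 members. No share over all genes stands beside that count, nor beside the one given below for SAG without the block. In each fit with a library left out 1 group holds 1 library, which is assumed to vary like the others. The member called without the ZNF521 library with DMSO was SNORA80E, which the main fit had not called, so that none of the main calls remained. Without the ZNF521 library with SAG, SNORA12 and SNORD116-18 were the main calls that remained.

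**Figure D3:**
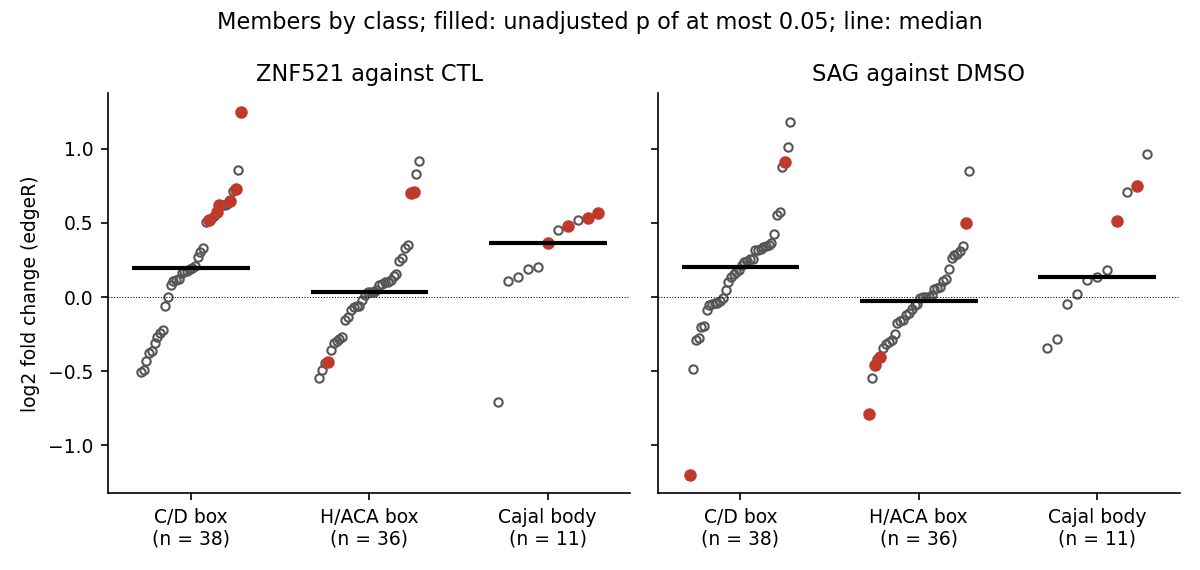
Log2 fold changes of the 85 members from edgeR for ZNF521 against CTL and for SAG against DMSO, by class, with filled points at an unadjusted p of at most 0.05 and a line at the class median. For ZNF521, 10 of 11 Cajal body members lie above 0, whereas H/ACA members lie evenly around it (median 0.0323), and for SAG the C/D box median is 0.201.

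The Cajal body class had the most one-sided estimates with ZNF521, above 0 in 10 of 11 members, with a median log2 fold change of 0.36 and 4 members called higher. SCARNA7, which guides methylation of an snRNA, had a log2 fold change of 0.54 ± 0.17 (SE, unadjusted p of 0.00824, adjusted p = 0.828 by edgeR). SCARNA5, a long scaRNA with C/D boxes at its ends, had 0.48 ± 0.16 (unadjusted p of 0.0115, adjusted p = 0.888 by edgeR). For SCARNA13, which overlaps an exon of its host SNHG10, the change was 0.57 ± 0.18 (unadjusted p of 0.00671, adjusted p = 0.785 by edgeR), and for SCARNA21 0.36 ± 0.16 (unadjusted p of 0.0389, adjusted p = 0.907 by edgeR). SCARNA6 shares the host ATG16L1 with SCARNA5 and stood at 1008, 1167, 1330 and 1190 normalized counts in the same order, with a change of 0.20 ± 0.16 (unadjusted p of 0.217). The remaining members of the class were at lower counts, SCARNA22 among them with 104.5, 81.19, 97.75 and 115.6. The median of the class was 0.20 without the CTL library with DMSO and 0.69 without the CTL library with SAG, against a median over all genes of -0.0034 in the full fit. Both of these values also lack the block.

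The ratios within each treatment were unequal. SCARNA7 was 1.80 times higher with ZNF521 in DMSO (1.70 to 1.90) and 1.17 times in SAG (1.12 to 1.23). SCARNA5 gave 1.65 (1.56 to 1.74) and 1.18 (1.12 to 1.24), SCARNA21 1.50 (1.41 to 1.59) and 1.11 (1.05 to 1.17), and SCARNA13 1.80 (1.58 to 2.06) and 1.22 (1.08 to 1.38). In all 4 both ratios were above 1 and the ratio in DMSO was the larger, which rests on the low values of CTL cells with DMSO. Without that library SCARNA5 and SCARNA13 kept an unadjusted p under the threshold, whereas SCARNA7 had a log2 fold change of 0.14 (unadjusted p of 0.287) and SCARNA21 of 0.20 (unadjusted p of 0.158).

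**Figure D4:**
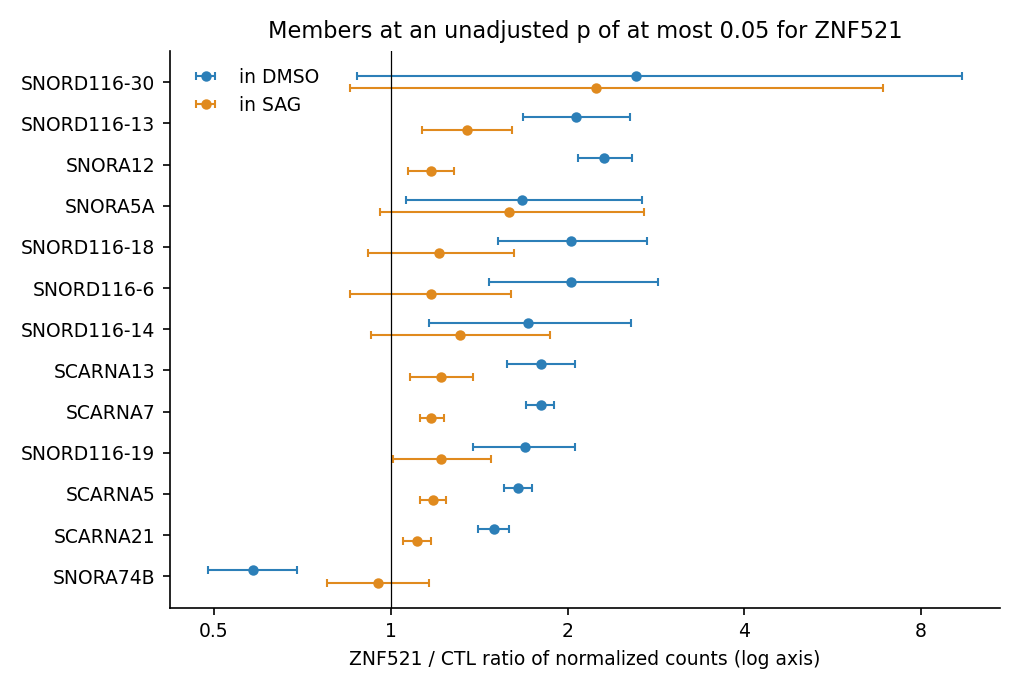
Ratio of normalized counts of ZNF521 to CTL cells (log axis) in DMSO and in SAG for the 13 members at an unadjusted p of at most 0.05, with exact 95% intervals that cover counting error only. For SNORA12 the ratio is 2.31 in DMSO and 1.17 in SAG, and for all 13 members the ratio in DMSO lies farther from 1.

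Among H/ACA members there was no common direction. Of the 36, 20 had a higher and 16 a lower estimate with ZNF521, and the median was 0.0323. SNORA12, in an intron of CWF19L1, stood at 497.6, 879.6, 1167 and 1029 normalized counts in the order CTL with DMSO, CTL with SAG, ZNF521 with DMSO and ZNF521 with SAG. Both ZNF521 libraries were above both CTL libraries, and the log2 fold change was 0.71 ± 0.21 (unadjusted p of 0.00451, adjusted p = 0.711 by edgeR). With 1 library left out it ran from 0.324 without the CTL library with DMSO to 1.12 without the CTL library with SAG, and it lost the threshold without the ZNF521 library with DMSO (0.579, unadjusted p of 0.109). SNORA5A, 1 of the snoRNAs in introns of TBRG4, was also called at far lower counts, with 32.17, 27.06, 54.54 and 43.03 (0.70 ± 0.29, unadjusted p of 0.0327, adjusted p = 0.907 by edgeR).

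SNORA74B, in an intron of the proton pump gene ATP6V0E1, was the 1 member called lower. It stood at 360.9, 207.5, 213.0 and 197.4, so that CTL cells with DMSO were high and the other 3 libraries lay close together. Its log2 fold change was -0.44 ± 0.20 (unadjusted p of 0.0453, adjusted p = 0.910 by edgeR), and without the CTL library with DMSO it was -0.0132. SNORA53 was also highest in CTL cells with DMSO, with 1357, 526.6, 522.7 and 759.3, but its other libraries lay further apart. It did not pass (-0.44 ± 0.32, unadjusted p of 0.191 by edgeR). It overlaps an exon of SLC25A3, whose own normalized counts were 9856, 10700, 10610 and 10400. The most abundant H/ACA member, SNORA73B, lay between 19110 and 21130 in the 4 libraries, with a log2 fold change of 0.0488 ± 0.18.

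C/D box members called for ZNF521 were all copies of SNORD116. SNORD116-13 stood at 141.7, 225.5, 297.4 and 303.7 normalized counts and had the smallest p of all 85 members, with a log2 fold change of 0.73 ± 0.19 (unadjusted p of 0.00233, adjusted p = 0.679 by edgeR). With 1 library left out it ran from 0.419 without the CTL library with DMSO to 1.07 without the CTL library with SAG, and it lost the threshold without the ZNF521 library with DMSO (0.726, unadjusted p of 0.0576) or with SAG (0.682, unadjusted p of 0.075). SNORD116-19 stood at 161.8, 199.6, 276.8 and 244.7 (0.52 ± 0.19, unadjusted p of 0.0148), and SNORD116-18 at 73.38, 92.47, 151.3 and 112.2 (0.65 ± 0.23, unadjusted p of 0.0163). In each copy CTL cells with DMSO were lowest and both ZNF521 libraries lay above both CTL libraries. SNORD116-6 (57.3, 76.68, 118.3 and 89.43), SNORD116-14 (43.22, 59.77, 75.12 and 78.46) and SNORD116-30 were the other called copies. SNORD116-30, with 5, 6, 13 and 18 counts, passed the count threshold through the ZNF521 libraries alone.

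Over the 17 copies kept, the summed counts were 694 and 828 in CTL cells (DMSO, then SAG) and 1161 and 1295 in ZNF521 cells. After scaling, the sum was 1.69 times higher with ZNF521 in DMSO (1.53 to 1.86) and 1.17 times in SAG (1.07 to 1.28). Within the family 12 of 17 estimates were above 0, with a median of 0.27, and without the 4 copies that passed through 1 condition 10 of 13 were, with a median of 0.305. The other 21 C/D box members kept had a median of 0.17 and none at the threshold (smallest unadjusted p of 0.137). SNORD17 stood at 7741, 7340, 8277 and 8101 and SNORD15B, in the ribosomal protein gene RPS3, at 459.4, 416.1, 478.5 and 507.1.

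Copies of SNORD116 are so alike that reads cannot always be placed. For each RNA, the share of its windows of 50 bases, the read length, that occur once in hg38 was computed. SNORD116-13 and 4 other copies kept were unique in every window, whereas SNORD116-3, SNORD116-7, SNORD116-17 and SNORD116-19 had no unique window. SNORD116-17 and SNORD116-19 have 1 and the same sequence, yet their mean normalized counts were 9.443 and 220.7. A read that lies wholly within either could come from both, and how such reads were counted is not given in the sources used here, so that values of these copies are uncertain. The 5 unique copies, SNORD116-30 among them, together had 182, 253, 346 and 425 counts, with a ratio of ZNF521 to CTL cells of 1.92 in DMSO (1.60 to 2.31) and 1.26 in SAG (1.07 to 1.47). SNORD116-13 alone supplied 141, 200, 289 and 360 of these counts. Of the 5 estimates with ZNF521, 3 were above 0 and 2 below, and SNORD116-30 had passed the count threshold through the ZNF521 libraries alone. Over all classes, every window was unique in 69 of the 85 members.

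**Figure D5:**
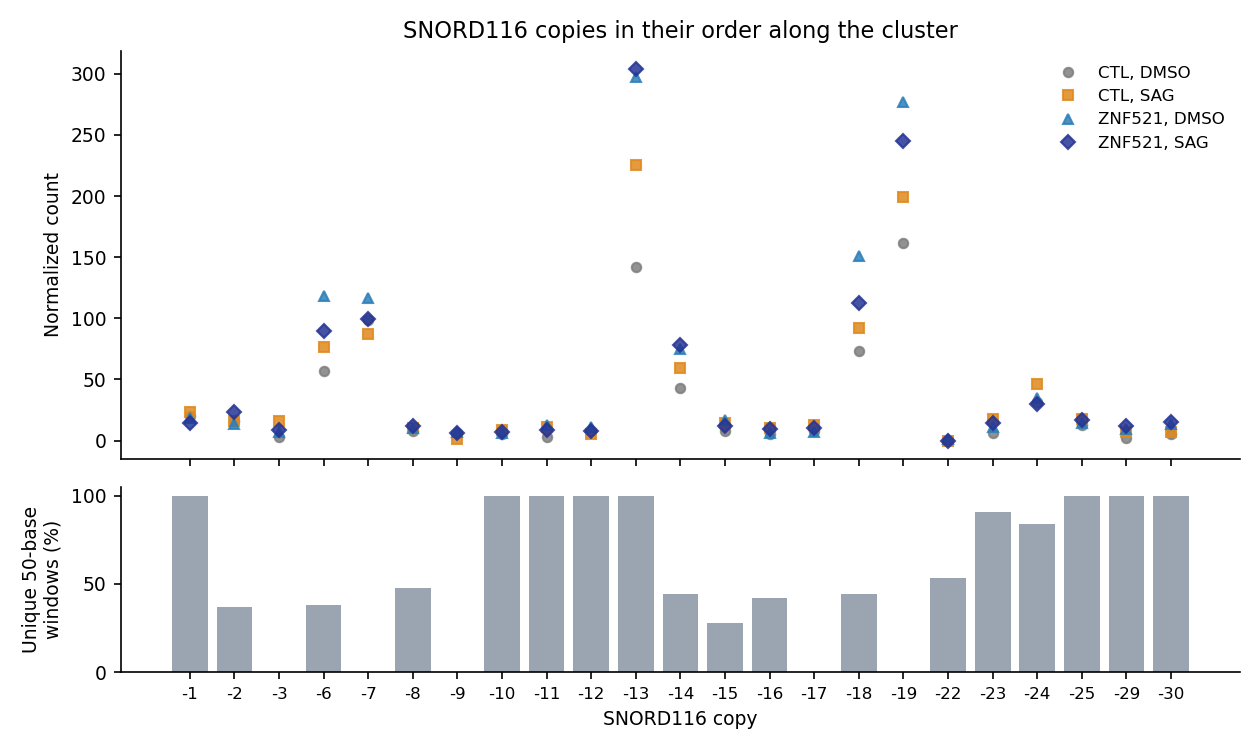
Upper panel, normalized counts of the 23 SNORD116 copies with a row in their order along the cluster, 1 symbol per library. Lower panel, share of each copy's 50-base windows that occur once in hg38. SNORD116-13, with 100% unique windows, and SNORD116-19, with 0%, hold the most counts, and most of the others lie under 50.

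Other imprinted C/D box clusters were close to the limit of detection. The SNORD115 copies with a row summed to 0, 0, 1 and 1 counts in the order above, those of SNORD113 to 1, 3, 3 and 2, and those of SNORD114 to 41, 58, 52 and 78. At this depth no difference was detectable for the first 2 clusters. Neighbouring mRNAs of the SNORD116 region had smaller estimates with ZNF521, with -0.17 for SNRPN, 0.0212 for SNURF and -0.0691 for UBE3A.

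The order of the libraries could also be read without a model. Both ZNF521 libraries lay above both CTL libraries in 31 of 85 members (36.5%, against 13.3% of all genes tested) and below both in 7 (8.24% against 13.0%). Those above were 21 of 38 C/D box (55.3%), 5 of 36 H/ACA (13.9%) and 5 of 11 Cajal body members (45.5%). Of the 17 SNORD116 copies 8 were among them (47.1%), so that most of these C/D box members lay outside that family. Of the 31, 4 had passed the count threshold through the ZNF521 libraries alone, all of them C/D box members. Without all 10 members that passed through 1 condition the counts were 27 (36%) and 7 (9.33%) of 75. CTL cells with DMSO were the lowest of the 4 libraries in 42 members (49.4% against 37.5%), namely 22 of 38 C/D box, 12 of 36 H/ACA and 8 of 11 Cajal body members. They were the highest in 13 (15.3% against 34.5%), 10 of which were H/ACA members.

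The second comparison asked which members differed with SAG against DMSO within the kinds of cells. It uses the same libraries as the first. Of the 85 members, 8 reached an unadjusted p of at most 0.05, 4 higher and 4 lower, which was 9.41% against 11.3% of all genes (4.71% against 6.21% higher and 4.71% against 5.12% lower). None passed after adjustment by edgeR, DESeq2 or limma (by edgeR the 8 had adjusted values from 0.391 to 0.436), where 6 genes of the table (0.0401%) did by edgeR. Both SAG libraries lay above both DMSO libraries in 12 members (14.1% against 25.4%) and below in 9 (10.6% against 22.7%). Without the 10 members that passed through 1 condition these were 8 and 7 of 75, and 7 members were called, 4 higher and 3 lower. DESeq2 gave 1 member at the unadjusted threshold, SCARNA7, and limma 7, again without shares over all genes beside them.

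SCARNA7 was called here too, with a log2 fold change of 0.51 ± 0.17 (unadjusted p of 0.0109, adjusted p = 0.391 by edgeR). It was 1.77 times higher with SAG in CTL cells (1.66 to 1.87) and 1.15 times in ZNF521 cells (1.10 to 1.21), and the CTL library with SAG lay below the ZNF521 library with DMSO. With 1 library left out the change ran from 0.0796 without the CTL library with DMSO to 0.943 without the ZNF521 library with DMSO, and it passed the threshold in the latter alone. SCARNA9 stood at 37.19, 107.1, 88.49 and 97.02 normalized counts in the order CTL with DMSO, CTL with SAG, ZNF521 with DMSO and ZNF521 with SAG (0.75 ± 0.30, unadjusted p of 0.0264). Its change ran from 0.193 to 1.44 in the same 2 fits, and again passed without the ZNF521 library with DMSO alone. Its host CEP295, a centrosomal gene, was also higher with SAG (0.53 on the log2 scale, unadjusted p of 0.00897). SNORA28, in an intron of EIF5, stood at 82.43, 117.3, 90.55 and 127.4 (0.50 ± 0.21, unadjusted p of 0.0335), and SNORD99 at 12 to 25 counts per library was the other member called higher. For SNORA28 the ratios in CTL and ZNF521 cells were close, at 1.41 (1.05 to 1.91) and 1.42 (1.08 to 1.86).

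The members called lower with SAG were SNORA74B, SNORA26, SNORA47 and SNORD88A, the last at 15, 7, 12 and 5 counts and kept through the DMSO libraries alone. SNORA47 stood at 229.2, 154.5, 209.9 and 176.3 normalized counts (-0.41 ± 0.18, unadjusted p of 0.0458), with both SAG libraries below both DMSO libraries. SNORA26, which overlaps an exon of the noncoding RNA DANCR, stood at 37.19, 22.55, 27.78 and 15.19 (-0.79 ± 0.35, unadjusted p of 0.0417). SNORA74B had -0.46 ± 0.20 (unadjusted p of 0.0373), again with CTL cells with DMSO above the other 3 libraries. Without that library 8 members reached the threshold, all lower with SAG (9.41%, against 14.6% of all genes in either direction, 7.37% higher and 7.26% lower), and none of them was among the 4 above. Without the ZNF521 library with DMSO 25 did (29.4% against 40.8% of all genes), 19 of them higher (22.4% against 21.6%). Without the CTL or the ZNF521 library with SAG 2 (2.35% against 2.32%) and 3 (3.53% against 2.71%) did, and 3 did without the block alone.

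Class medians with SAG were 0.20 for C/D box, -0.0243 for H/ACA and 0.14 for Cajal body members. The C/D box median was -0.10 without the CTL library with DMSO and -0.0494 over the 11 members with a mean count of at least 50. Copies of SNORD116 had 0 calls with SAG (smallest unadjusted p of 0.0859 by edgeR), and their summed ratio was 1.33 in CTL cells (1.20 to 1.47) and 0.921 in ZNF521 cells (0.850 to 0.998).

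Members and their hosts were set side by side for the 65 members whose host had a row. The estimates had the same sign in 39 of 65 pairs for ZNF521 and 43 of 65 for SAG. Hosts differed less, with a median absolute log2 fold change of 0.11 against 0.28 for members with ZNF521 and 0.13 against 0.24 with SAG, where low counts of members add to the spread. With ZNF521, KPNA4 had -0.0759 beside 0.54 for SCARNA7, CWF19L1 -0.00572 beside 0.71 for SNORA12, and CHD3 -0.00619 beside 0.36 for SCARNA21. ATG16L1 had 0.0779 beside 0.48 for SCARNA5, and SNHG10 0.13 beside 0.57 for SCARNA13. For these 5 called members, no host was called.

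Genes for the proteins that build and carry these RNAs were read against the 2.36% of all genes called higher and 3.11% called lower with ZNF521. None of the 4 tested core proteins of C/D box particles, 4 of H/ACA particles, 14 assembly factors or 12 cap-binding, export and Cajal body factors was called. Fibrillarin (FBL) stood at 2240, 2249, 2213 and 2133 normalized counts, and dyskerin (DKC1) at 2001, 2341, 2220 and 2254. Of 17 trimming and decay factors, the exosome nuclease DIS3 was called higher (0.38, unadjusted p of 0.0404), as were TAF1A and TAF1D among 29 genes of RNA polymerase I and ribosome biogenesis. TAF1D, which hosts several snoRNAs, was also the 1 call among 29 noncoding or snoRNA-rich host genes, and none of 9 other small RNAs was called.

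With SAG, where 6.21% of all genes were called higher and 5.12% lower, more of these genes were called than with ZNF521. NOP58, a core protein of C/D box particles, stood at 350.8, 622.5, 515.5 and 671.6 (0.60 ± 0.17, unadjusted p of 0.00343, adjusted p = 0.391 by edgeR), whereas its partners NOP56 and FBL had estimates of -0.00644 and -0.0239. Among assembly factors ZNHIT6, RPAP3 and TAF9 were higher and NAF1, an H/ACA assembly factor, was lower. PHAX, the export adaptor of capped small RNAs, with NCBP1 and NPAT made 3 of 12 called higher in the cap and Cajal body list. In the other lists 3 of 17 trimming factors and 5 of 29 ribosome biogenesis genes were higher, the vault RNA VTRNA1-1 was the 1 call, lower, among 9 small RNAs, and MEG3 the 1 call, lower, among 29 hosts (-0.78, unadjusted p of 0.00347). In NOP58, ZNHIT6, RPAP3 and TAF9 the CTL library with DMSO was the lowest and the other 3 lay closer together. That library was also the lowest in SCARNA7 and in 37.5% of all genes tested. The rest of the order differed, since in these genes the CTL library with SAG lay above the ZNF521 library with DMSO and in SCARNA7 below it.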

How the data were processed

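DAOY RNA was read in 4 libraries, 1 per condition. Per the labels and the paper's methods, STAR 2.7.0e was used by the authors to place read pairs of 50 nt on hg38 and to obtain gene counts. Whole counts of 20363 genes are in the raw table as deposited. The signal values of the deposited normalized table are the same counts that the authors divided by 1 DESeq2 size factor per library, and 503 genes are missing from it. The annotation, strand setting and treatment of reads with several positions are not given in the sources used here.

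The 14970 genes that reached 10 counts in 2 or more libraries entered edgeR 4.0.16 in R 4.3.3 (TMM, glmQLFit, glmQLFTest), with the other factor as block, which leaves 1 residual degree of freedom. The spread of each gene was drawn towards that of all genes, with 11.72 prior degrees of freedom. P values were two-sided and adjusted by Benjamini-Hochberg over all these genes, beside the study's unadjusted threshold of 0.05. The interaction of the factors could not be tested. Normalized counts are counts divided by size factors, and ratios of 2 libraries use TMM sizes with exact 95% Clopper-Pearson intervals (scipy 1.17.1). PCR reads are not independent molecules, so that intervals cover counting error only. Alternatives were RLE factors, library size alone, no filter, a minimum mean count of 50, no block, DESeq2 1.42.0, limma 3.58.1, each library left out (the factor alone, since a block would leave no residual degree of freedom), and subsets of members chosen after the values were seen. The tests were checked on simulated counts whose means and spread were taken from these same libraries, so that the check cannot show how replicates would vary. Positions, hosts and sequences came from GENCODE 44 (hg38), where all 85 members matched, and 4 differed in length by over 20% from RefSeq.

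Named members were the 6 highest of each class, those at the unadjusted threshold in either comparison, those at the edge of the count threshold, and members and clusters known beforehand, with their hosts. The members and gene lists were chosen with earlier results of these data known.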

Additional observations from a re-analysis of the deposited data

Results flagged for a closer look

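For 8 members the ratio of 2 libraries had intervals clear of 1 in opposite directions within the treatments or within the kinds of cells. With 1 library per condition the difference was not tested.

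SNORA53 was lower with ZNF521 in DMSO, at a ratio of 0.380 (0.342 to 0.421), and higher in SAG, at 1.44 (1.29 to 1.61). For SAG against DMSO it gave 0.385 in CTL and 1.46 in ZNF521 cells. SCARNA1 showed 0.635 with ZNF521 in DMSO and 2.06 in SAG, at 21 to 58 counts per library. SNORD46 went the other way, with 2.04 in DMSO and 0.637 in SAG.

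For SAG against DMSO, SNORA12 gave 1.76 in CTL and 0.888 in ZNF521 cells, SNORA54 1.47 and 0.809, and SNORA5C 1.37 and 0.753. SCARNA21 gave 1.28 and 0.947, and SCARNA6 1.15 and 0.900. All 5 were higher with SAG in CTL cells and lower in ZNF521 cells, and for all 5 CTL cells with DMSO were the lowest library.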

How the results depend on the processing

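With ZNF521, the 13 members at the unadjusted threshold were 5 by DESeq2 and 7 with SNORD116 left out, a subset chosen after the values were seen, and 1 to 22 when 1 library was left out. The count after adjustment, 0, was 2 (SNORA12 and SNORD116-13) with no filter on low counts and 0 to 15 when 1 library was left out, the 15 without the CTL library with SAG. With no filter, 100 of 20363 genes passed after adjustment. No share of all genes after adjustment stands beside the 15. That fit called many of all genes at the unadjusted threshold, as given above, so that the 15 cannot be read as an excess of members. The Cajal body median of 0.36 ran from 0.196 to 0.693. With SAG, the 8 members were 5 with a mean count of at least 50, where fewer members are tested, 1 by DESeq2, 3 with no block and 2 to 25 when 1 library was left out. After adjustment the count of 0 reached 12 without the ZNF521 library with DMSO. The 12 likewise has no share of all genes after adjustment beside it and cannot be read as an excess. The C/D box median of 0.20 was -0.0494 above the mean count of 50 and ran from -0.103 to 0.424 with a library left out. Without the CTL library with DMSO, the SAG change reversed for SCARNA13 (-0.301, against 0.566 without the ZNF521 library with DMSO) and SNORA12 (-0.292 against 0.935). In both cases 2 SAG libraries are set against the ZNF521 library with DMSO alone, with ratios within ZNF521 cells of 0.898 and 0.888. Fits with a library left out hold the factor alone, so that library and block change together. Other causes were not tested. Of 396 values of named members under the other settings 362 kept direction and side of the threshold and 29 lost the threshold, and of 232 with a library left out 122 kept both. These totals include named members in comparisons where the main fit had not called them, which could not lose the threshold. They thus overstate how stable the calls themselves were. No paired analysis by replicate was possible because the labels give no replicate numbers and each group has 1 library. Depth limits the lower members, since 10 counts leave wide intervals, and the single library per condition limits every comparison.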
